A study of Mus musculus with 12 samples.

Results

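The genes of neurotrophin signalling measured here were the ligands Bdnf and Ntf3, the Trk receptors Ntrk2 and Ntrk3, the shared receptor Ngfr and the sorting receptor Sort1. They were taken by name, and all 6 were found among the 55471 gene IDs of the table and passed the filter on low counts. The RNA came from ventral CA1, the output field of the hippocampus, in acute horizontal slices of wild-type male C57BL/6J mice aged 5 to 7 weeks, with no transgene in any group. STET_S200 and STET_S100 slices received a strong tetanization together with pulses to the basolateral amygdala, at 200 Hz in STET_S200 and 100 Hz in STET_S100. STET slices had the strong tetanization alone, which consisted of 3 trains of 100 pulses at 100 Hz and is used to induce late long-term potentiation. Control slices carried the electrodes and had basal stimulation only. The label of STET_S200 also mentions pulses at 100 Hz, so its rate is given here as the group name has it. Each of the 12 libraries, 3 per group, pooled 6 slices frozen 30 min after stimulation, and each mouse gave 4 slices, 1 to each group. Since each mouse gave 1 slice to each group, libraries of a group made from different slices came from different mice. The labels do not state that the 3 libraries of a group were separate pools of slices. The p-values measure the spread between these libraries.

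Neurotrophins are secreted growth factors made as longer precursors. BDNF, the product of Bdnf, acts on the tyrosine kinase receptor TrkB (Ntrk2), and neurotrophin-3, the product of Ntf3, acts mainly on TrkC (Ntrk3). The precursors bind p75 (Ngfr) together with sortilin (Sort1), which also sorts proBDNF into the regulated secretory pathway. In the hippocampus BDNF and TrkB are needed for lasting potentiation, and Bdnf transcription from several starts is a known response to neuronal activity.

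The ligand genes varied most between libraries, and their promoter windows are shown for that reason. A window runs from 250 bases before to 50 bases after a transcription start in RefSeq on GRCm38.p6. Windows were found for 4 of the 6 genes, 7 for Bdnf, 2 for Ntf3 and 1 each for Ntrk2 and Ngfr. Both strands were searched for the cAMP response element TGACGTCA, its variant TCACGTCA, the core TGACGT and the E-box CACGTG. The full element holds the core on both strands and the variant holds it on 1 strand. In the order given, the 4 motifs occur in 1.79%, 0.441%, 7.51% and 7.15% of all 32851 windows. Of the 11 windows of these genes, 1 window of Bdnf held the variant, 38 to 31 bases before the start, with the core inside it, and 1 window of Ntf3 held the E-box, 231 to 226 bases before the start. The matched letters are in capitals below. The Bdnf window is chr2:109692186-109692485 on the plus strand and the Ntf3 window chr6:126166695-126166994 on the minus strand.
Bdnf: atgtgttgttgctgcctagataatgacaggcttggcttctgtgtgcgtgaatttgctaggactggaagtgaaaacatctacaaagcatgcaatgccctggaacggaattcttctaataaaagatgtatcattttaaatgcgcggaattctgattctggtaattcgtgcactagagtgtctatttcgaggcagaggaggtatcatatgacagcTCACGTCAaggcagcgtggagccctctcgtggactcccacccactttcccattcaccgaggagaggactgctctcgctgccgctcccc
Ntf3: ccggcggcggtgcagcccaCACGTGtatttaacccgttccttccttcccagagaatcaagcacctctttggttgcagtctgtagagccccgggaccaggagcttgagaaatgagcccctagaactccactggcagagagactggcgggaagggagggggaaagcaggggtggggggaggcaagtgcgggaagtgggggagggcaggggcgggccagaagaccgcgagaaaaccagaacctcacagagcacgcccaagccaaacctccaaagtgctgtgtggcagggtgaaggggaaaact
A match describes these letters and does not show a site in use.

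The counts are per gene and pool all transcripts, so the several starts of Bdnf, and the full-length and truncated forms of Ntrk2 that are known from brain, were not told apart. In the GENCODE M21 annotation Bdnf (ENSMUSG00000048482) has 11 transcripts and Ntrk2 (ENSMUSG00000055254) has 10. Ntrk3 (ENSMUSG00000059146) has 20, Ntf3 (ENSMUSG00000049107) and Sort1 (ENSMUSG00000068747) have 3 each and Ngfr (ENSMUSG00000000120) has 1. Other annotated genes overlap Bdnf, Ntrk2, Ntrk3 and Sort1, some on the opposite strand, and since the strand setting of the counting is not given, reads there cannot be assigned with certainty. Each of them had at most 219 counts in a library, against at least 1638 for the gene it overlaps.

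Library totals lay between 36.3 and 52.8 M counts. All 6 CA1 markers were detected in every library, with summed levels of 902 to 1090 CPM, which are counts scaled to the adjusted library total. Dentate granule cell markers summed to 69.5 to 183 CPM. Fabp4, which encodes a lipid-binding protein of adipocytes and endothelium, was above 1 CPM in STET_S200 2, STET_S200 3, STET_S100 1, STET 3 and Control 3. Choroid plexus markers were lowest in the 3 STET_S200 libraries and STET_S100 3.

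Per length, Sort1 was the most abundant of these genes, followed by Ntrk2, Bdnf, Ntrk3, Ntf3 and Ngfr. Sort1 averaged 81.5 CPM per kb of exon over the 12 libraries, with a range of 78.1 to 87.4. The level of Ntrk2 was 48.9 CPM per kb (46.4 to 51.7). Bdnf stood at 10.5 CPM per kb (7.20 to 12.7) and Ntrk3 at 8.91 (8.29 to 9.45), ranges that overlap. Ntf3, at 0.531 CPM per kb (0.159 to 0.843), and Ngfr, at 0.516 (0.380 to 0.664), overlapped as well. The order of Sort1 and Ntrk2 depended on the length used, since per kb of the longest transcript Ntrk2 was at 107.8 and Sort1 at 90.3 CPM. Transcripts of neurotrophin-3 and p75 were thus the scarcest of the 6 on this scale.

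**Figure D1:**
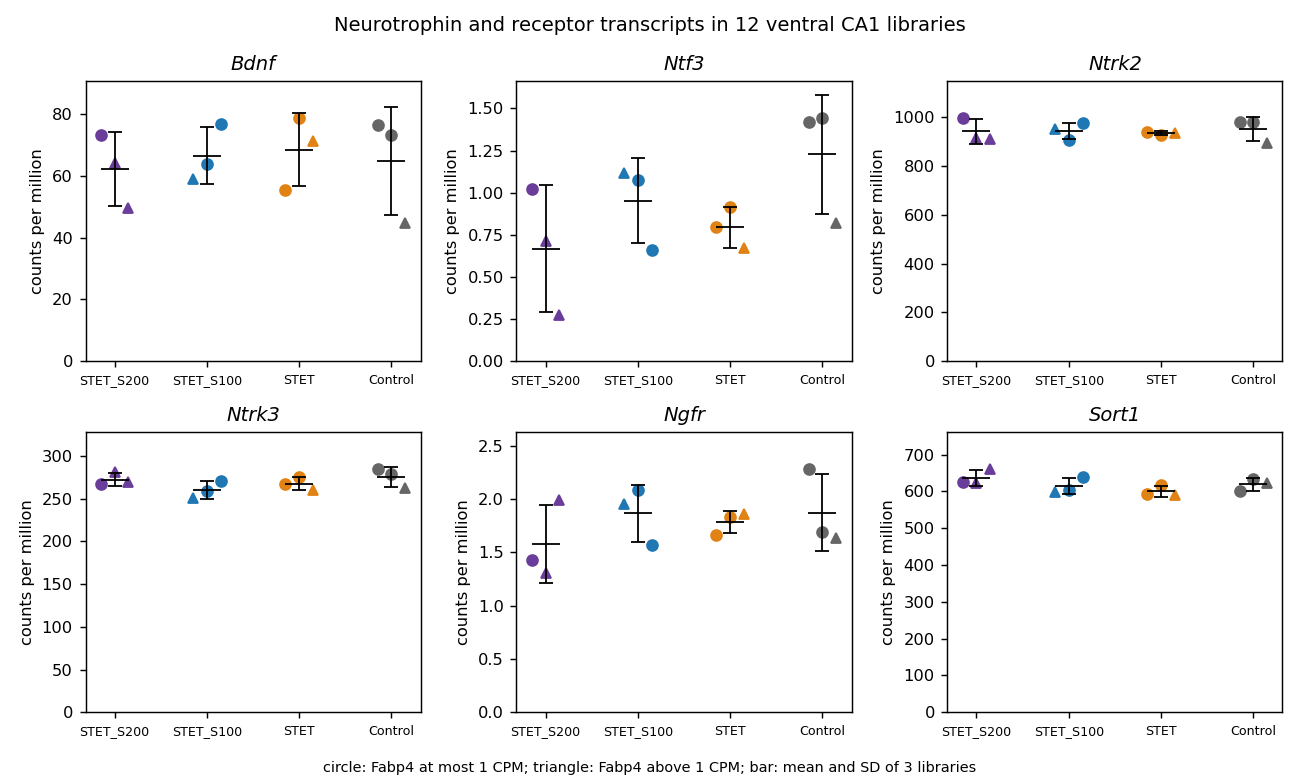
Level of each of the 6 genes in CPM, by group. Points are libraries, drawn as triangles where Fabp4 was above 1 CPM, and bars are the mean and SD of 3 libraries. Bdnf and Ntf3 spread widely within groups, while Ntrk2, Ntrk3 and Sort1 stay within a narrow band.

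No gene of the family passed the test in any comparison. In each of the 9 comparisons 0 of the 6 members and 0 of all 19492 genes tested (0.0%) passed at an adjusted p of 0.05 with edgeR's quasi-likelihood test. Control was set against STET_S200, STET_S100, STET and all of these together, the stimulated groups were compared in pairs, both amygdala groups were set against STET, and the last test took any difference among the 4 groups. Between 615 and 1154 genes had an unadjusted p under 0.05, and with DESeq2 between 1 and 16 genes passed, none of them a member. Of the 6 members, 5 had a log2 fold change below 0 in STET_S200, in STET_S100 and in STET against Control, while 50.6%, 50.8% and 49.9% of all genes were above 0. These 3 comparisons share the Control libraries. The member above 0 was Sort1 in STET_S200 and Bdnf in STET_S100 and STET. Bdnf and Ntrk2 were within 1 SE of 0 in each of the 3. So were Ngfr in STET_S100 and STET, Ntrk3 in STET_S200 and STET, and Sort1 in STET_S200 and STET_S100. The signs of all these values carry little weight. Only Ntf3 was beyond 1 SE in each of the 3. The median log2 fold change of the members was −0.04 in STET_S200, −0.01 in STET_S100 and −0.04 in STET, against 0.00 over all genes in each.

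**Figure D2:**
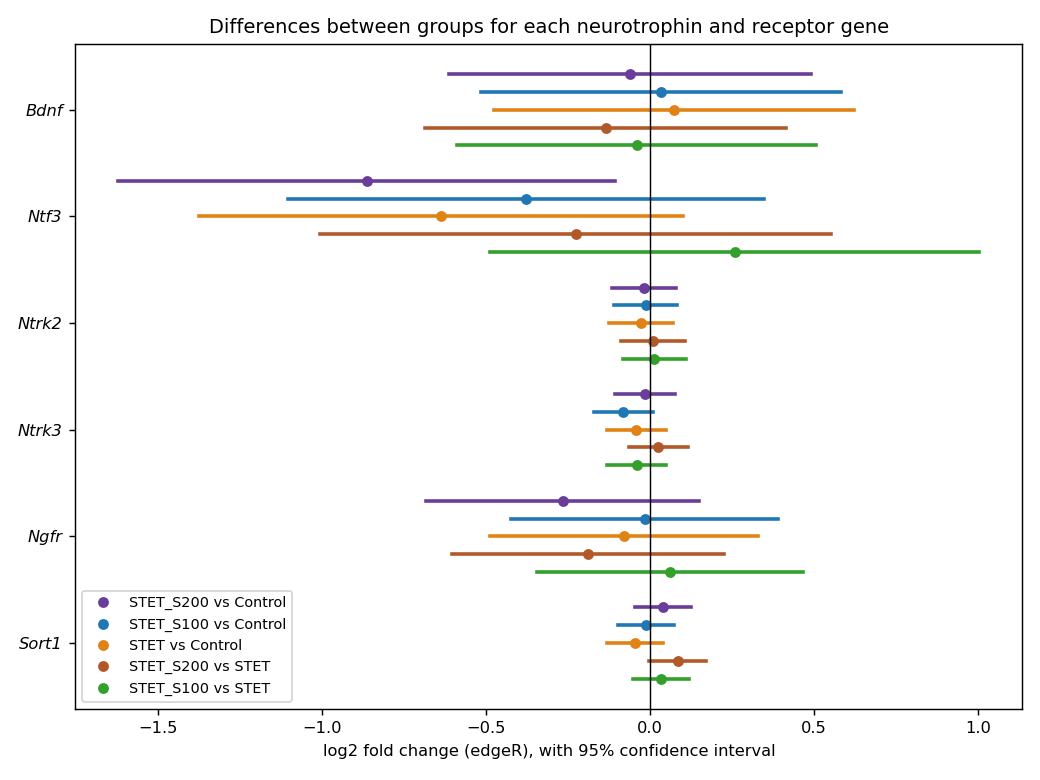
Log2 fold change of each gene in 5 comparisons, with its 95% confidence interval from edgeR. The intervals of Ntrk2, Ntrk3 and Sort1 are narrow and hold 0, those of Bdnf and Ngfr are wide and hold 0, and that of Ntf3 in STET_S200 against Control lies below 0 from −1.62 to −0.11 before adjustment.

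Bdnf, the ligand of TrkB, did not differ detectably between the groups. It was at 73.3, 64.0 and 49.5 CPM in STET_S200, 59.0, 63.9 and 76.9 CPM in STET_S100, 55.5, 78.9 and 71.2 CPM in STET, and 76.6, 73.2 and 44.8 CPM in Control. The lowest library, Control 3, and the highest, STET 2, differed 1.76-fold, and every group overlapped with every other. The log2 fold change against Control was −0.06 ± 0.24 in STET_S200, 0.03 ± 0.24 in STET_S100 and 0.07 ± 0.24 in STET (SE; edgeR adjusted p = 0.985, 0.994 and 1.00). The 95% interval for STET against Control ran from 0.719-fold to 1.54-fold, so a change within those bounds could not be seen with 3 libraries a group. In the robust fit Bdnf had 0.212 prior degrees of freedom, against a median of 8.90 over genes, so its error came almost wholly from its own libraries.

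The spread of Bdnf was wide for its level. Its coefficient of variation over the 12 libraries was 17.3%, higher than in 99.5% of the 2682 genes within 1.5-fold of its level, whose median was 4.17%. Ntf3 varied by 36.5%, above 93.7% of 1816 genes of its level. The receptors were near the median for their levels, with 3.59% for Ntrk2, 3.76% for Ntrk3, 15.8% for Ngfr and 3.45% for Sort1. Within groups alone the coefficient of variation of Bdnf was 19.8%.

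**Figure D3:**
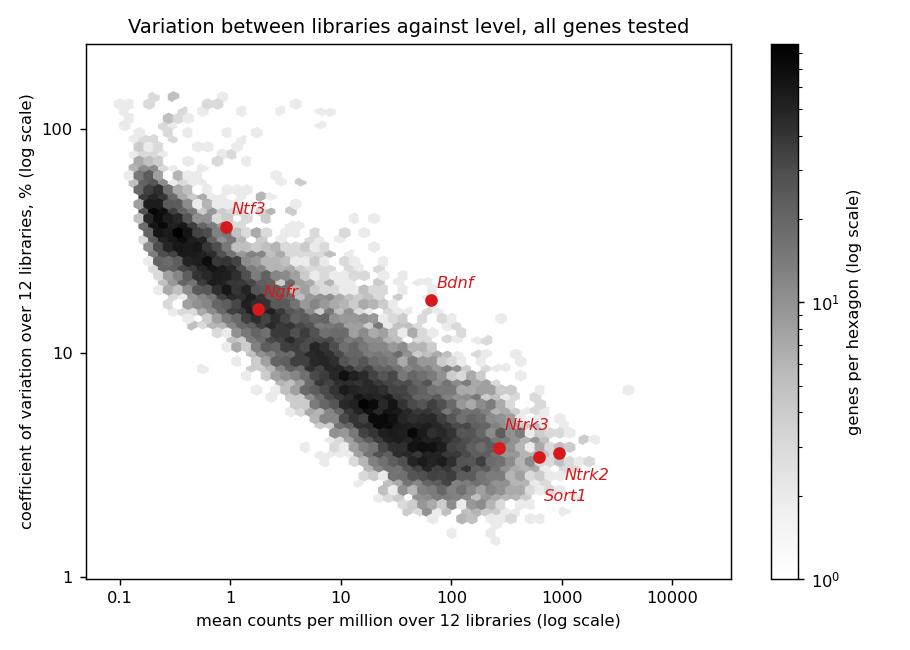
Coefficient of variation over the 12 libraries, in percent, against the mean level in CPM, both on log scales, for all 19492 genes tested (grey, darker where more genes lie) and the 6 genes (red). Bdnf, at 17.3%, lies at the upper edge of the cloud, and the receptors lie within it.

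Ntf3, the ligand of TrkC, was lower on average in each stimulated group than in Control, without passing the test over all genes. It was at 1.02, 0.711 and 0.273 CPM in STET_S200, 1.12, 1.08 and 0.661 CPM in STET_S100, 0.794, 0.916 and 0.672 CPM in STET, and 1.42, 1.45 and 0.820 CPM in Control. Control 1 and Control 2 were above all 9 stimulated libraries, whereas Control 3 lay among them, so the groups overlapped. These levels rest on 10 to 75 counts per library. The group means were 0.669 ± 0.376 CPM in STET_S200, 0.952 ± 0.252 in STET_S100, 0.794 ± 0.122 in STET and 1.23 ± 0.354 in Control (SD, n = 3 each).

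Against Control the log2 fold change of Ntf3 was −0.86 ± 0.36 in STET_S200 (SE; edgeR unadjusted p = 0.0282, adjusted p = 0.828). It was −0.38 ± 0.34 in STET_S100 (edgeR adjusted p = 0.924) and −0.64 ± 0.35 in STET (edgeR adjusted p = 1.00). All stimulated groups together gave −0.63 ± 0.28 (edgeR unadjusted p = 0.0383, adjusted p = 0.895). These were the only member comparisons with an unadjusted p under 0.05, a level that 5.92% of all genes reached in STET_S200 and 5.47% in all stimulated groups. Without STET_S200 3, which had 10 counts, the STET_S200 value was −0.51, and without STET_S200 1 it was −1.29. With the 7 libraries that had Fabp4 at most 1 CPM it was −0.49, from a single STET_S200 library. The STET_S100 value was −0.17 without STET_S100 3, −0.25 without Control 1, −0.26 without Control 2 and −0.59 without Control 3, and −0.73 with the 7 libraries.

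The unadjusted p-values of Ntf3 under 0.05 rested on single libraries. For all stimulated groups against Control the unadjusted p of edgeR was 0.163 without Control 1, 0.144 without Control 2, 0.0517 without STET 1, 0.0609 without STET 3, 0.0558 without STET_S100 3 and 0.0512 without STET_S200 2. For STET_S200 against Control it was 0.0931 without Control 1, 0.0824 without Control 2, 0.0550 without STET_S200 2 and 0.113 without STET_S200 3. Choroid plexus content also moved with the group, since the choroid score was −0.698, −1.30 and 0.0607 in STET_S200 and 1.81, 4.25 and 1.92 in Control, with no overlap. With the choroid score as a covariate the log2 fold change was −0.50 in STET_S200 (edgeR unadjusted p = 0.260) and −0.55 in all stimulated groups (edgeR unadjusted p = 0.0561). In STET_S200 choroid content and stimulation cannot be told apart.

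Ntf3 followed the dentate granule cell markers from library to library. The score of the 7 markers, their mean log2 CPM, was 3.59, 3.13 and 1.97 in STET_S200, 3.62, 3.54 and 2.72 in STET_S100, 2.92, 3.58 and 2.98 in STET, and 3.33, 3.58 and 2.49 in Control. Its 2 lowest libraries, STET_S200 3 and Control 3, were also the lowest of their groups in Ntf3. Pearson's r between the score and log2 CPM of Ntf3 was 0.848 over 12 libraries (permutation test, two-sided, p = 0.00081, adjusted p = 0.0194 over 24 relations of 6 genes and 4 scores) and Spearman's rho was 0.776 (permutation adjusted p = 0.0512). Without those 2 libraries r was 0.755 (permutation p = 0.0154, adjusted p = 0.369), and as deviations from the group means it was 0.966. Among the 7 libraries with Fabp4 at most 1 CPM r was 0.705 (exact permutation p = 0.0770), and the 5 others are too few for a value. In bulk tissue fewer cells of a type and less RNA per cell cannot be told apart.

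Ntf3 was also fitted with the dentate score. Whether dentate content accounts for its difference from Control was not tested. With the dentate score as a covariate, a setting added after the data were seen, the log2 fold change of all stimulated groups against Control was −0.62 (edgeR unadjusted p = 0.00176, adjusted p = 0.691). For STET_S200, STET_S100 and STET it was −0.75, −0.51 and −0.61 (edgeR adjusted p = 0.653, 0.875 and 0.999).

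**Figure D4:**
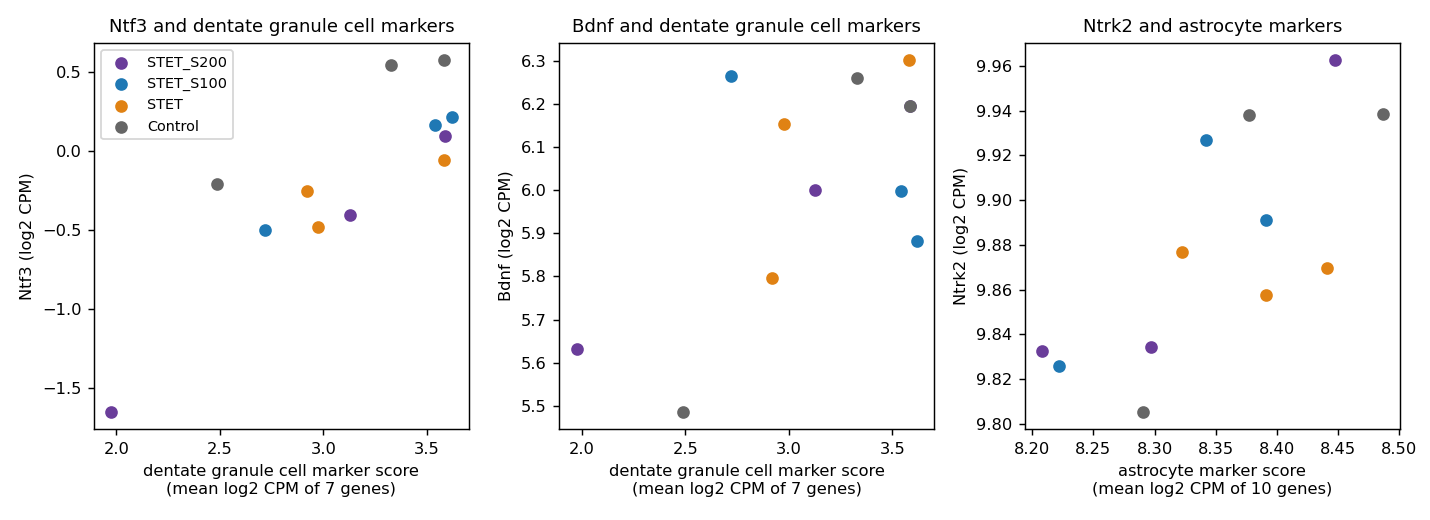
Log2 CPM of Ntf3 and Bdnf against the dentate granule cell score (mean log2 CPM of 7 marker genes), and of Ntrk2 against the astrocyte score (10 genes). Each point is a library, coloured by group. Ntf3 is lowest where the dentate score is lowest. Control 1 and Control 2 lie above every stimulated library in Ntf3, while Control 3 lies among them.

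The dentate relation of Bdnf rested on 2 libraries. Its r with the score was 0.632 (permutation adjusted p = 0.179) and 0.077 without STET_S200 3 and Control 3. With the astrocyte score the r of Bdnf was 0.627 (permutation adjusted p = 0.179). Without the 2 libraries farthest in that score, STET_S100 2 and STET_S200 3, it was 0.595 (permutation adjusted p = 0.546). The ratio of the ligands, Bdnf over Ntf3 per kb of exon, was 19.8, 24.8 and 49.9 in STET_S200, 14.6, 16.4 and 32.0 in STET_S100, 19.3, 23.7 and 29.2 in STET, and 14.9, 14.0 and 15.1 in Control. It was nearly constant in Control, where both ligands were low in the same library, and all STET and STET_S200 libraries lay above it. The Control ratios rest on 75, 53 and 30 counts of Ntf3, so their closeness does not measure their precision. Taken singly, Bdnf and Ntf3 each overlapped between these groups and Control. How often other pairs of genes give ratios without overlap was not counted. No test was made of this ratio.

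Ntrk2, which encodes the BDNF receptor TrkB, was close to equal in all groups. It was at 998, 913 and 912 CPM in STET_S200, 949.6, 907 and 973 CPM in STET_S100, 940.2, 928 and 936 CPM in STET, and 981, 981 and 895 CPM in Control. The groups overlapped, and the whole range was 1.12-fold. Against Control the fold was 0.988 in STET_S200 (95% interval 0.924 to 1.06), 0.991 in STET_S100 (0.926 to 1.06) and 0.981 in STET (0.917 to 1.05), so a change beyond about those bounds lies outside the intervals. Ntrk2 rose with the astrocyte score without passing, at r = 0.733 and rho = 0.797 (permutation adjusted p = 0.0955 and 0.0512 over the 24 relations). Without the 2 farthest libraries r was 0.657 (permutation adjusted p = 0.500). As deviations from the group means r was 0.805 (permutation adjusted p = 0.0232). That permutation shuffled across groups and ignored the group means taken out. Its p is therefore too small and is not counted as a pass. TrkB is known in astrocytes mainly in its truncated form, which these counts cannot separate.

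Ntrk3, which encodes the neurotrophin-3 receptor TrkC, averaged 272 ± 7.70 CPM in STET_S200, 260.2 ± 10.5 in STET_S100, 267 ± 7.50 in STET and 275 ± 11.9 in Control (SD, n = 3 each). Its libraries ran from 250.1 CPM in STET_S100 1 to 285 CPM in Control 1, and the groups overlapped. The value farthest from 0 was that of STET_S100 against Control, a log2 fold change of −0.08 ± 0.04 (SE; edgeR adjusted p = 0.902). Per kb, Ntrk2 stood 5.08 to 5.94 times above Ntrk3 in the 12 libraries.

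Ngfr, which encodes the shared receptor p75, was scarce. It was at 1.43, 1.31 and 2.00 CPM in STET_S200, 1.95, 2.08 and 1.57 CPM in STET_S100, 1.67, 1.83 and 1.87 CPM in STET, and 2.29, 1.69 and 1.64 CPM in Control, from 59 to 121 counts. The groups overlapped. The log2 fold change of STET_S200 against Control was −0.27 ± 0.20 (SE; edgeR adjusted p = 0.873). p75 is abundant in the cholinergic neurons that project to the hippocampus, and of the 3 markers of those neurons Slc5a7 was at 0.738 to 1.66 CPM in the 12 libraries, Slc18a3 at 0.0273 to 0.132 CPM and Chat at 0 to 0.0945 CPM. The part of such fibres in the level of Ngfr was not tested.

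Sort1, which encodes sortilin, was slightly higher in STET_S200 than in STET, without passing the test. It was at 624, 623 and 662 CPM in STET_S200, 598, 604 and 639.5 CPM in STET_S100, 593, 616 and 591 CPM in STET, and 600.1, 633 and 624 CPM in Control. All STET_S200 libraries were above all STET libraries, and no member was without overlap in any other pair of groups. In STET_S200 against STET 2335 of 19492 genes (12%) were without overlap in either direction. In the other pairs the share was 11% (2147 genes) for STET_S200, 10.1% for STET_S100 and 8.89% for STET against Control, 9.6% for STET_S100 against STET and 9.34% for STET_S200 against STET_S100. The fold was 1.06 (95% interval 0.999 to 1.13; edgeR adjusted p = 0.938). Against Control the log2 fold change in STET_S200 was 0.04 ± 0.04 (SE; edgeR adjusted p = 0.909).

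Among the members, log2 CPM over the 12 libraries was most alike in Bdnf and Ntrk2 (r = 0.673) and most opposed in Ntf3 and Sort1 (r = −0.531). Among 11995 genes with a mean log2 CPM of at least 2, the patterns most like Bdnf were those of Stk40 (r = 0.958), Twistnb (0.943) and Rps6ka3 (0.929). The nearest to Ntf3 were Ablim3 (0.912), Diaph1 (0.907) and Slc30a3 (0.888). For Ntrk2 they were Oat, B230354K17Rik and Rlim, for Ntrk3 Nf1, Tcp11l1 and Ago2, for Ngfr Deptor, Fhod3 and Plekho1, and for Sort1 Coro2b, Kcnv1 and Rapgef2. These are descriptions over libraries that share dissection and marker content.

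The rest of the pathway was read from 7 lists, and 0 genes of any list passed in any comparison (0.0% of all genes). Ntf5, a further ligand of TrkB, had at most 26 counts in a library and was not tested. Of 8 further receptors and sortilin relatives, 6 were above 0 in all stimulated groups against Control, with a median log2 fold change of 0.01. Against Control, 7 were above 0 in STET_S200 (median 0.09), 4 in STET_S100 (median 0.01) and 2 in STET (median −0.03). Of all genes, 50.6%, 50.8% and 49.9% were above 0 in STET_S200, STET_S100 and STET. The p75 co-receptors Lingo1 and Rtn4r and the proBDNF co-receptor Sorcs2 had log2 fold changes of 0.09 ± 0.04, 0.14 ± 0.05 and 0.09 ± 0.03 in both amygdala groups against STET (SE; edgeR adjusted p = 1.00 for each).

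Cleavage and sorting of the precursors was read from 14 genes tested of 16, of which 6 were above 0 in all stimulated groups against Control (median log2 fold change −0.01). Pcsk1, a convertase of secretory granules, averaged 54.0 ± 2.12 CPM in STET_S200, 55.3 ± 6.25 in STET_S100, 51.4 ± 2.79 in STET and 61.3 ± 5.07 in Control (SD, n = 3 each), with a log2 fold change of −0.20 ± 0.06 in all stimulated groups (SE; edgeR adjusted p = 0.845). Of 42 Trk adaptor and signalling genes 17 were above 0 (median −0.01). The adaptor Sh2b2 was at 8.90 ± 0.553 CPM in STET_S200, 8.42 ± 0.277 in STET_S100, 8.45 ± 0.399 in STET and 7.34 ± 0.120 in Control (log2 fold change 0.23 ± 0.07; edgeR adjusted p = 0.845). Of 16 genes of Trk trafficking and turnover 8 were above 0 (median 0.00), and Nedd4l, a ubiquitin ligase, had a value of −0.09 ± 0.03 (edgeR adjusted p = 0.845). Of 20 effectors of p75 12 were above 0 (median 0.01), and Adam17, a protease that cleaves p75, was at 0.10 ± 0.06 (edgeR adjusted p = 0.936).

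Of 21 regulators of Bdnf transcription, 11 were above 0 in all stimulated groups against Control (median log2 fold change 0.01, against 0.00 over all genes). Npas4, a transcription factor induced by activity that binds Bdnf promoters, averaged 162 ± 43.1 CPM in STET_S200, 206 ± 109 in STET_S100, 210.0 ± 49.2 in STET and 63.8 ± 10.5 in Control (SD, n = 3 each). Its log2 fold change was 1.59 ± 0.36 (SE; edgeR adjusted p = 0.845), while that of Bdnf in the same libraries was 0.02 ± 0.20. Rest, a repressor of neuronal genes, was at 0.21 ± 0.08 (edgeR adjusted p = 0.860). Mef2a, an activity-regulated factor, was at 0.06 ± 0.03 (edgeR adjusted p = 0.904) and Camk4, a kinase of CREB, at −0.05 ± 0.04 (edgeR adjusted p = 0.954).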

How the data were processed

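The 12 libraries of ventral CA1 were strand-specific, made from poly(A) RNA and read as 150 bp pairs, per the labels' protocols. The authors deposited read counts per Ensembl gene ID with no scaling. Tools named in the submitters' processing notes are HTSeq 0.11.2, STAR 2.7.1a, Trimmomatic 0.39, limma and R 4.0.2. For build, annotation and strand setting the entry is: not given in the sources used here. Symbols and exon lengths came from GENCODE M21, which held 55144 of 55471 IDs.

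The 6 genes were given by name, and the genes and lists were chosen with earlier results of these data known. Library sizes were adjusted with TMM, and genes with enough counts were kept by filterByExpr (minimum count 10, total 15), which left 19492. They were tested with edgeR 4.0.16 in R 4.3.3 (quasi-likelihood F test, robust, 1 fit of 12 libraries with 1 coefficient per group) and adjusted by Benjamini-Hochberg over all genes in each comparison. Correlations used 100000 permutations, or all of them for fewer than 10 libraries (SciPy 1.17.1). Other genes of the pathway are the 4 of each list with the smallest p in the test among the 4 groups, of which some are named and some are not reported here. The tests were tried on simulated counts. No 2 libraries of a group agreed within sampling noise (chi-square per degree of freedom at least 5.16). Total counts of 36.3 to 52.8 M limit the precision of scarce genes such as Ntf3. Alternatives were other scalings (RLE, upper quartile) and filters, DESeq2 1.42.0, limma-voom (limma 3.58.1), non-robust dispersion, the compared groups alone, a replicate block, a threshold of 0.1, the 7 libraries with Fabp4 at most 1 CPM, a choroid score and each library left out.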

Additional observations from a re-analysis of the deposited data

How the results depend on the processing

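No member passed under any of these settings, where the smallest adjusted p of a member was 0.229. Of 1194 fold changes of members under the alternatives, 80 had the other sign and 28 moved by over 1 SE. None was a call.

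The number of genes passing was 0 in each comparison and changed as follows. Without a filter it was 16 in STET, 42 in STET_S100 and 69 in STET_S200 against Control, 22 in STET_S100 against STET, 34 in STET_S200 against STET, 98 in STET_S200 against STET_S100, 52 in all stimulated groups, 29 in both amygdala groups against STET and 192 among the 4 groups. With DESeq2 it was 1, 3, 4, 1, 16, 5, 7, 15 and 12 in the same order. With the compared groups alone it was 1 in STET_S100 against Control and 2 in the amygdala groups against STET. It was 4 in all stimulated groups with the 7 libraries with low Fabp4. With the dentate score it was 1 in STET_S200 against Control and 1 among the 4 groups. Leaving out each library in turn gave 0 to 1 in STET_S100 against Control, 0 to 2 in STET_S200 against Control, 0 to 1 in STET_S100 against STET, 0 to 8 in STET_S200 against STET_S100 (8 without STET_S100 3), 0 to 1 in all stimulated groups, 0 to 2 in the amygdala groups against STET and 0 to 1 among the 4 groups. The cause was not tested.

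With the 7 libraries with low Fabp4 the log2 fold changes that moved by over 1 SE were as follows. In STET_S100 against Control they were −0.73 for Ntf3 and −0.062 for Ntrk2, and in STET_S200 against Control −0.49 for Ntf3, −0.081 for Ntrk3 and −0.49 for Ngfr. In STET_S200 against STET they were 0.12 for Bdnf, 0.26 for Ntf3, 0.091 for Ntrk2, −0.028 for Ntrk3 and 0.041 for Sort1. In STET_S200 against STET_S100 they were 0.24 for Ntf3, 0.084 for Ntrk2, 0.0068 for Ntrk3 and 0.0047 for Sort1. With the choroid score as a covariate Ntf3 was at −0.50 in STET_S200 against Control, 0.19 against STET and −0.041 against STET_S100, and Ngfr at 0.011 against STET and −0.039 against STET_S100.

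Leaving out each library in turn, the values that moved had these ranges. In STET_S200 against Control they were Ntf3 from −1.29 to −0.51. In STET_S200 against STET they were Ntf3 from −0.65 to 0.12 and Ngfr from −0.38 to −0.067. In STET_S200 against STET_S100 they were Ntf3 from −0.91 to −0.14 and Ngfr from −0.45 to −0.13. In all stimulated groups against Control they were Ngfr from −0.21 to 0.060, Bdnf from −0.19 to 0.16, Ntrk2 from −0.063 to 0.0027 and Ntrk3 from −0.081 to −0.019.

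Per kb of the longest transcript the levels were 107.8 for Ntrk2, 90.3 for Sort1, 15.4 for Bdnf and 13.6 for Ntrk3. The correlation of Ntf3 with the dentate score no longer passed without the 2 farthest libraries (r = 0.755). That of Ntrk2 with the astrocyte score was 0.805 as deviations from the group means. The permutation ignored the group means taken out, so this is not counted as a pass.

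With the replicate number as a block 0 genes and 0 members passed in every comparison. Equal numbers did not steadily deviate together (r −0.285 to 0.330 over 18 pairs, 7 of them over 0.1). Between unequal numbers r was −0.348 to 0.362. Of the 12 libraries 7 correlated best with their own number, a hint from the data and not from the design, which leaves the pairing unresolved. The groups share mice, and the labels do not say whether equal numbers mark the same mice, so the numbers were not used as pairs. Depth limits Ntf3 and Ngfr, at 10 to 121 counts a library.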

Other observations

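These genes, which overlap members, were picked out after their values were seen. C630044B11Rik, a long noncoding RNA gene inside Ntrk2 on the same strand, had 4, 7 and 8 counts in STET_S200, 8, 12 and 2 in STET_S100, 15, 26 and 17 in STET, and 4, 1 and 3 in Control. All STET libraries lay above those of the other groups. Its log2 fold change in STET against Control was 2.67 ± 0.61 (SE; edgeR adjusted p = 1.00), and that of both amygdala groups against STET −1.40 ± 0.43 (edgeR adjusted p = 1.00). Unspliced Ntrk2 reads over it cannot be told apart from its own.

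Gm12523, on the strand opposite to Sort1, was at 4.61, 3.93 and 4.43 CPM in STET_S200, 4.37, 4.57 and 3.74 CPM in STET_S100, 3.24, 3.07 and 3.21 CPM in STET, and 3.69, 3.63 and 4.48 CPM in Control. The 3 STET libraries were the lowest of the 12. Of all genes, 12% were without overlap in either direction in STET_S200 against STET, 9.6% in STET_S100 against STET and 8.89% in STET against Control. These shares are for single pairs of groups. How many genes had STET beyond all other libraries at once was not counted. Both genes here were singled out of 11 that overlap members. The log2 fold change of both amygdala groups against STET was 0.43 ± 0.11 (SE; edgeR adjusted p = 0.838).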
